A study of Mus musculus with 40 samples.

Results

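V segments joined to Trdj segments in T cell receptor delta transcripts were compared with V segments joined to Traj segments in T cell receptor alpha transcripts, in wild-type mouse thymus. The members are the 4 wild-type libraries of these loci, 2 for Trd and 2 for Tcra, of the 40 samples in the series, chosen by their labels. Together their tables list 111 V segments, of which 5 are named Trdv, 10 are Trav segments with a second, delta name (such as Trav15-2-dv6-2, called DV-named here) and 96 are other Trav segments. The segments matched across tables by symbol, and each count was scaled by the total of its table.

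The series studies a CTCF binding site at the Tcra enhancer, called EACBE. All 4 libraries came from thymus of C57BL/6 mice aged 4 to 8 weeks with the site intact (EACBE+/+), and the tissue is labelled as thymocytes with no sorting named. RNA was copied by 5′ RACE, in which a template switch adds the same end to every transcript, so that no V-specific primer is needed. The same loci in EACBE-/- thymus, 2 libraries each, are used for 1 comparison at the end. The tables hold receptor segments alone, so the tissue label could not be checked against other genes.

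The delta chain pairs with the gamma chain in γδ T cells, and the alpha chain pairs with the beta chain in αβ T cells. Trd lies inside Tcra, between the Trav and the Traj arrays, and joining a Trav to a Traj segment deletes it. Trd rearranges first, in immature thymocytes, and Tcra later, in cells that carry both CD4 and CD8. Both loci draw on the same V array, parts of which are duplicated in C57BL/6 mice: copies carry a d or an n in their names (Trav15d-1 and Trav15n-1 beside Trav15-1).

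Total counts were 1744 and 28093 in the Trd tables and 10694 and 172388 in the Tcra tables, for replicates 1 and 2 in turn. The tables differ in what they list: Trd replicate 1 holds 18 V segments and Trd replicate 2 holds 88, while the Tcra tables hold 106 and 111, with the Trdv segments in replicate 2 alone. The gap is wider than the totals give: Trav15n-1, at its share of Trd replicate 2, would give 60.8 counts in a table the size of Trd replicate 1, which does not list it. An unlisted segment may be at 0 or may not have been looked for, so it is given no value of its own here unless stated. In sums over classes, families, array parts or copies with any listed segment, and in the diversity values, it adds nothing, as a 0 would. A count of 0 allows a share of up to 0.172% in Trd replicate 1 and 0.0107% in Trd replicate 2. Nothing in the labels says that the replicates came from separate mice, so p-values measure only the spread between these libraries, and intervals cover counting error only. In whole thymus, fewer cells using a segment and less receptor RNA per cell cannot be told apart.

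The V repertoire of Trd was narrow beside that of Tcra. The most used segment took 33.5% and 24.9% of Trd counts in replicates 1 and 2, after each library was thinned to 1744 counts, against 3.58% and 4.32% of Tcra counts. The 5 most used segments together took 76.7% and 72.7% of Trd counts and 15.9% and 17.6% of Tcra counts. The effective number of V segments (the exponential of the Shannon entropy, which is the number of equally used segments that would be as diverse) was 7.79 and 11.4 in Trd and 71.3 and 73.9 in Tcra. Both Trd libraries lay far below both Tcra libraries. An exact permutation test (two-sided) over 4 libraries has p = 0.333 as its lowest possible value, and gave it here and for each share below whose libraries do not overlap.

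Trdv segments, which are named for delta alone, took 58.2% and 49.1% of Trd counts. In Tcra they took 2.01% of replicate 2 and were not listed in replicate 1. DV-named segments took 41.5% and 40.4% of Trd counts and 12.6% and 13.5% of Tcra counts, which is 3.15-fold more in Trd (40.98% ± 0.761 against 13.02% ± 0.617, SD, n = 2 each). The other Trav segments took 0.287% and 10.5% of Trd counts and 87.4% and 84.5% of Tcra counts. Their share of Trd thus differed between the replicates far beyond counting error (95% Wilson intervals 0.123 to 0.669% and 10.2 to 10.9%), while the intervals of the DV-named share overlapped (39.2 to 43.8% and 39.9 to 41.01%). Of the Trd V segments, 70 are listed in replicate 2 alone and hold 8.81% of its counts. Of all Trav counts, DV-named segments held 99.3% and 79.4% in Trd and 12.6% and 13.7% in Tcra.

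**Figure D1:**
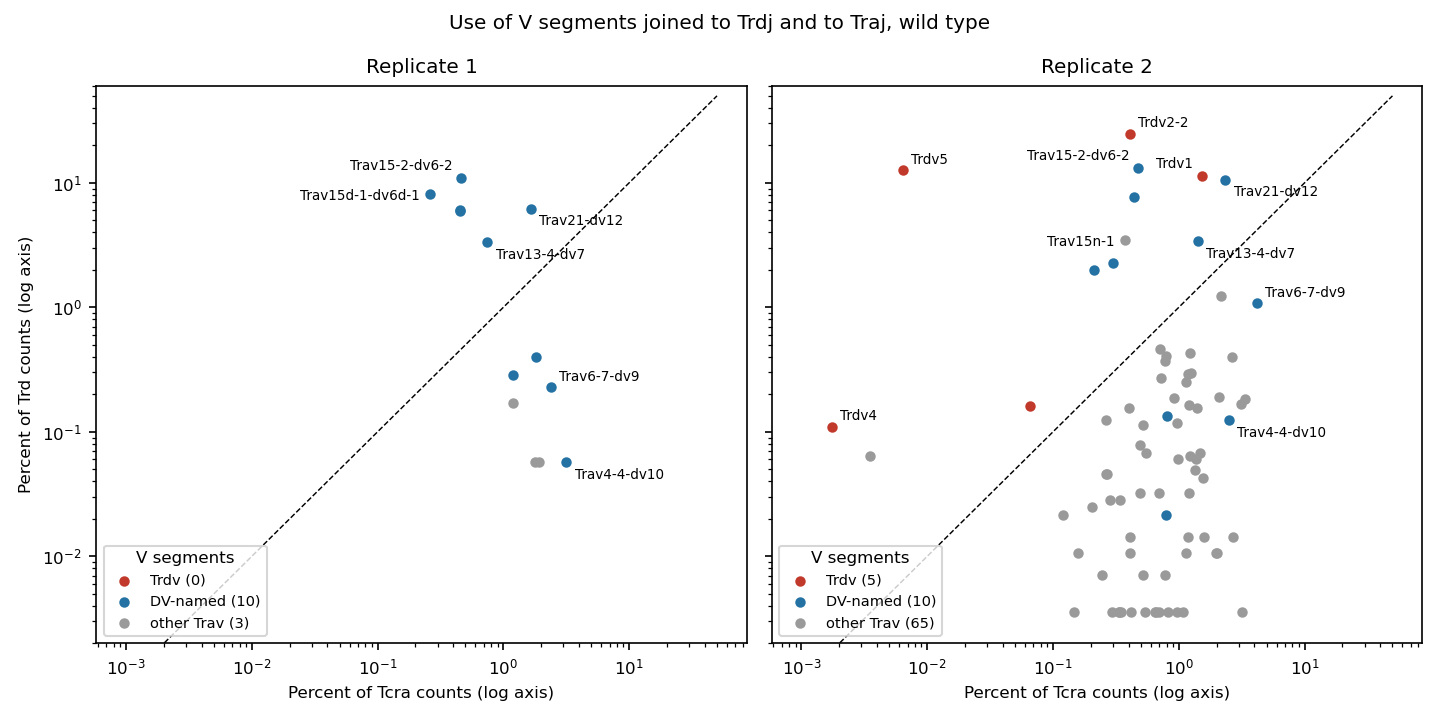
Share of each V segment in Trd (vertical axis, percent of table counts, log scale) against its share in Tcra (horizontal axis, percent, log scale), for replicates 1 and 2, with segments listed in both tables and with at least 1 Trd count drawn as points coloured by class and the line of equal shares dashed. In replicate 2, 5 Trdv segments, the Trav15 copies, Trav21-dv12 and Trav13-4-dv7 lie above the line and nearly all other Trav segments lie below it.

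Trdv2-2 was the most used delta segment, with 33.5% and 24.9% of Trd counts and 0.407% of Tcra replicate 2. Trdv5 took 12.6% and 12.7% of Trd counts and 0.00638% of Tcra replicate 2, where it had 11 counts. Trdv1 took 11.6% and 11.3% of Trd counts and 1.53% of Tcra replicate 2. These 3 made up nearly all Trdv use, and the replicates stood closer for Trdv1 and Trdv5 than for Trdv2-2. Trdv2-1 took 0.344% and 0.160% of Trd counts and 0.0655% of Tcra replicate 2. Trdv4, the Trdv segment nearest Trdj on the Trav side, took 0.172% and 0.110% of Trd counts, and 3 counts of Tcra replicate 2. With 1 Tcra library listing them, Trdv segments have no test here.

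Trdv5 (chr14:54148662-54149201, GRCm38.p6) starts downstream of the delta constant gene Trdc (chr14:54142851-54146108), whereas the other 4 Trdv segments lie upstream of Trdj1 (chr14:54123138-54123188). Trdv5 is known to join Trdj by inversion, without deletion of the DNA between them. In replicate 2 the Trd share was 1985-fold the Tcra share for Trdv5, 61.04-fold for Trdv2-2, 7.38-fold for Trdv1 and 2.44-fold for Trdv2-1. These ratios rest on 1 library per locus and carry no replicate check.

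The test of single V segments covered the 13 that all 4 tables list: the 10 DV-named segments, Trav14d-1, Trav14d-2 and Trav16n. Being listed in the small Trd replicate 1 table selects segments used in Trd, so these 13 do not stand for the array. In edgeR's quasi-likelihood test 8 of the 13, or 61.5%, differed at an adjusted p below 0.05, 5 higher in Trd (38.5%) and 3 lower (23.1%). Among the DV-named segments 5 of 10 were higher and 2 lower. The libraries of the loci did not overlap for 12 of the 13 (92.3%), 6 higher and 6 lower in Trd. The split depends on the scale: it was 4 higher and 6 lower with TMM factors, 6 and 6 in DESeq2, and 6 and 1 with Trdv counts left out of the totals. The median log2 change over the 13 was -1.15, -2.20 with TMM factors and -0.15 without Trdv counts, and no segment changed sign under these. With unlisted segments kept at 0, which assumes that they were looked for, edgeR called 101 of 106 (95.3%), 11 higher (10.4%) and 90 lower (84.9%). The 11 were the 5 Trdv segments, 5 Trav15 copies and Trav21-dv12. With Trdv counts left out of those totals as well, it called 78 of 99 (78.8%), 7 higher (7.07%) and 71 lower (71.7%).

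The 4 Trav15 segments that carry the delta name dv6 had the largest log2 changes toward Trd of the 13 tested. Trav15-2-dv6-2 (chr14:53649425-53649994) took 10.9% and 13.1% of Trd counts and 0.458% and 0.475% of Tcra counts. Its log2 change was 4.68 (SE 0.307, adjusted p = 2.22e-13 in edgeR). Trav15-1-dv6-1 (chr14:53559676-53560247) took 5.96% and 7.67% of Trd counts and 0.449% and 0.440% of Tcra counts, a log2 change of 3.94 (SE 0.540, adjusted p = 6.06e-07 in edgeR). Both Trd libraries were above both Tcra libraries for each, and the replicates of a locus lay close together.

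The d copies of these segments were also higher in Trd, with a wider spread between replicates. Trav15d-1-dv6d-1 (chr14:52863365-52863933) took 8.14% and 2.00% of Trd counts and 0.262% and 0.212% of Tcra counts, a log2 change of 4.41 (SE 0.815, adjusted p = 3.69e-05 in edgeR). Trav15d-2-dv6d-2 (chr14:52956828-52957400) took 6.02% and 2.27% of Trd counts and 0.449% and 0.301% of Tcra counts, a log2 change of 3.46 (SE 0.906, adjusted p = 0.00193 in edgeR). For both d copies Trd replicate 1 was the higher Trd library. All 4 Trav15 calls held whichever library was left out.

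The n copies, which have no delta name, were listed in Trd replicate 2 alone. There Trav15n-1 took 3.49% of Trd counts, against 0.299% and 0.372% of the Tcra libraries, and Trav15n-2 took 0.0641% (18 counts), against 0.0561% and 0.00348%. Trav15n-2 differed between the Tcra libraries as well, with 6 counts in each although their totals differ widely. Of the 73 other Trav segments listed in both replicate 2 tables, 71 had a lower share in Trd, with a median 22.5-fold lower, and the 2 exceptions were Trav15n-1 and Trav15n-2.

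Summed over the copies each table lists (4 in Trd replicate 1 and 6 in each of the other tables), Trav15 took 31.0% and 28.6% of Trd counts and 1.97% and 1.80% of Tcra counts (29.8% ± 1.71 against 1.89% ± 0.120, SD, n = 2 each). The ratio was 15.7-fold in replicate 1 and 15.9-fold in replicate 2, the first setting 4 Trd copies against 6 Tcra copies. Over the 4 copies listed in all tables, the shares were 31.0% and 25.0% of Trd and 1.62% and 1.43% of Tcra counts, and the ratios 19.2-fold and 17.5-fold. The split among copies varied more than either sum: Trav15d-1-dv6d-1 made up 26.2% of Trav15 counts in Trd replicate 1 and 7.01% in Trd replicate 2, and Trav15-2-dv6-2 made up 35.1% and 45.8%. These splits are over 4 listed copies in replicate 1 and 6 in replicate 2. Of the 7036 counts of the same 4 copies in Trd replicate 2, these segments held 563 and 3680. The sources used here do not give how reads that match several copies were counted, and the value of a single copy is uncertain. With copies summed before the test 8 of 10 groups were called (80%), 3 higher in Trd (30%) and 5 lower (50%), each group summing the copies that a table lists. The Trav15-1 group had a log2 change of 3.74 (SE 0.169, adjusted p = 7.39e-09 in edgeR) and the Trav15-2 group one of 4.22 (SE 0.160, adjusted p = 2.81e-09 in edgeR), and both were called whichever library was left out.

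**Figure D2:**
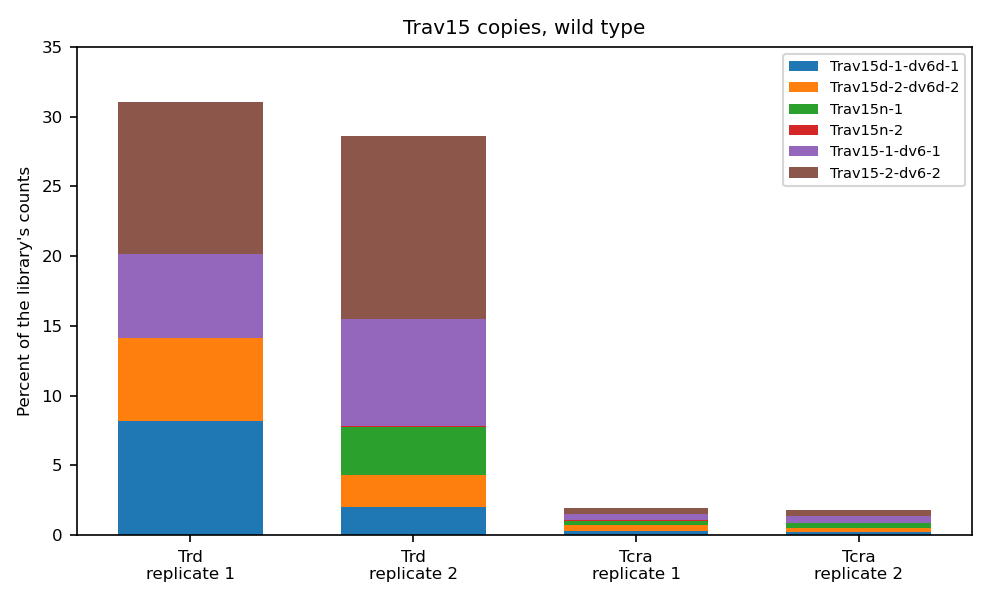
Percent of each wild-type library's counts (vertical axis) taken by the Trav15 copies, stacked, in the 4 libraries, with 4 copies listed in Trd replicate 1 and 6 in the others. The stacks reach 31.0% and 28.6% in Trd and 1.97% and 1.80% in Tcra, and the parts of the d copies are larger in Trd replicate 1 than in replicate 2.

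Trav21-dv12 (chr14:53876016-53876752), the listed Trav segment nearest Trdv1, took 6.19% and 10.6% of Trd counts and 1.66% and 2.34% of Tcra counts, a log2 change of 2.08 (SE 0.334, adjusted p = 6.00e-06 in edgeR). This call was lost with TMM factors (log2 change 1.09, adjusted p = 0.203 in edgeR) and without Tcra replicate 1 (1.85, adjusted p = 0.0704 in edgeR). Trav13-4-dv7 (chr14:53757410-53757921) took 3.33% and 3.42% of Trd counts and 0.748% and 1.41% of Tcra counts. Its libraries did not overlap, but it did not pass (log2 change 1.64, adjusted p = 0.0704 in edgeR), while DESeq2 gave an adjusted p of 0.0254. Its copies without a delta name had lower shares in Trd in replicate 2: Trav13d-4 took 0.125% of Trd and 0.262% of Tcra counts, and Trav13n-4 took 0.114% and 0.520%. The DV-named copy did not have the higher ratio of Trd to Tcra share in every group in replicate 2. This ratio was 0.474 for Trav14-3 and 0.0120 for Trav14n-3, against 0.0267 for Trav14d-3-dv8 (6 Trd counts). Trav16n had 0.573 against 0.169 for Trav16d-dv11. In the Trav4-4 and Trav6-7 groups the listed copies without a delta name had lower ratios than the DV-named one.

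The other 4 DV-named segments had lower shares in Trd than in Tcra. Trav4-4-dv10 (chr14:53683677-53684177) took 0.0573% and 0.125% of Trd counts, the first from 1 count, and 3.18% and 2.49% of Tcra counts. Its log2 change was -4.74 (SE 1.30, adjusted p = 0.00253 in edgeR), and the call was lost without Tcra replicate 1 (adjusted p = 0.126 in edgeR). Trav6-7-dv9 (chr14:53709943-53710419), the most used Tcra segment of replicate 2, took 0.229% and 1.08% of Trd counts and 2.39% and 4.19% of Tcra counts, a log2 change of -2.22 (SE 0.920, adjusted p = 0.0404 in edgeR). That call was lost without either Tcra library, with adjusted p = 0.155 in edgeR without replicate 1 and 0.340 without replicate 2, and with Trdv counts left out of the totals (0.298).

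Trav14d-3-dv8 and Trav16d-dv11 also had lower shares in both Trd libraries and did not pass. Trav14d-3-dv8 took 0.287% and 0.0214% of Trd counts and 1.19% and 0.799% of Tcra counts (log2 change -3.30, adjusted p = 0.0704 in edgeR). Trav16d-dv11 took 0.401% and 0.135% of Trd counts and 1.80% and 0.800% of Tcra counts (log2 change -2.46, adjusted p = 0.111 in edgeR). DESeq2 called both lower, at adjusted p = 0.0254 and 0.0353. The 10 DV-named segments therefore fell into 6 with higher and 4 with lower shares in both Trd libraries, and 5 and 2 of these passed in edgeR.

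**Figure D3:**
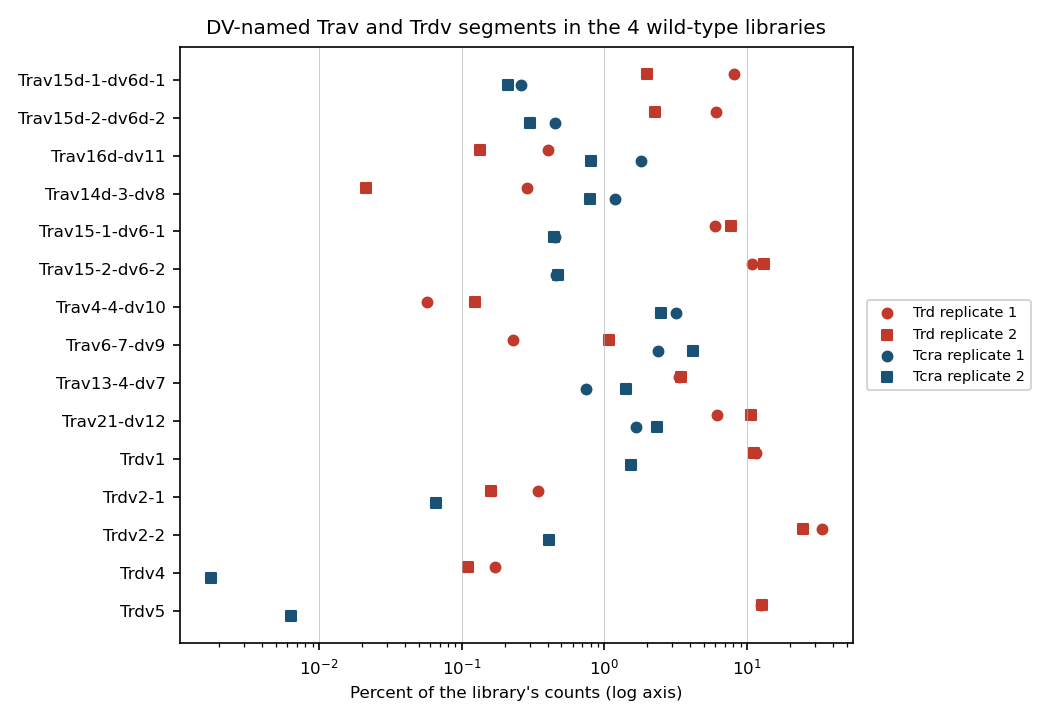
Percent of the library's counts (horizontal axis, log scale) for the 10 DV-named Trav and 5 Trdv segments, in chromosome order from top to bottom, with 1 point per wild-type library (colour for locus, shape for replicate). The 4 DV-named Trav15 segments, Trav13-4-dv7 and Trav21-dv12 have both Trd points to the right of both Tcra points, and Trav16d-dv11, Trav14d-3-dv8, Trav4-4-dv10 and Trav6-7-dv9 have them to the left.

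Among the 3 tested segments without a delta name, Trav14d-2 was lower in Trd, with 0.0573% and 0.164% against 1.79% and 1.20% of Tcra counts (log2 change -3.52, adjusted p = 0.0404 in edgeR). This call held in 1 of the 4 fits that left out a library and was lost without Trdv counts in the totals (adjusted p = 0.0546 in edgeR), and the first value is 1 count. Trav14d-1 took 0.0573% and 0.295% of Trd counts and 1.92% and 1.24% of Tcra counts and did not pass (adjusted p = 0.0664 in edgeR). Trav16n took 0.172% and 1.24% of Trd counts and 1.20% and 2.17% of Tcra counts, and was the only one of the 13 whose libraries overlapped.

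Of the 5 segments with the highest mean share of Tcra, those without a delta name were scarce in Trd. The remaining one, Trav6-7-dv9, took 1.08% of Trd replicate 2 and was 3.89-fold lower there. Trav7-4 took 2.62% and 3.13% of Tcra counts and Trav3d-3 took 3.34% and 2.96%. Both were at 0 of 28093 counts in Trd replicate 2. Set at the floor of 0.0107%, they were 293-fold and 277-fold lower there. Trav13-1, with 2.84% and 3.37% of Tcra counts, took 0.185% of Trd replicate 2, and Trav6-6, with 2.78% and 3.14%, took 0.167%. Trav17, a single-copy segment near the Trd end of the array and not among these leaders, took 0.117% of Trd replicate 2 and 1.36% and 0.962% of Tcra counts. None of Trav7-4, Trav3d-3, Trav13-1, Trav6-6 and Trav17 is listed in Trd replicate 1.

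By family, the order in replicate 2 ran from Trav15 (15.9-fold higher in Trd) and Trav21 (4.54-fold higher) through Trav16 (2.16-fold lower), Trav13 (2.30-fold lower), Trav14 (5.35-fold lower) and Trav6 (7.52-fold lower) to families hardly seen in Trd. In replicate 1 the Trd share divided by the Tcra share was 3.74 for Trav21, 0.317 for Trav13, 0.191 for Trav16, 0.0334 for Trav14 and 0.0211 for Trav6. The values of replicate 2 were 4.54, 0.434, 0.464, 0.187 and 0.133, so Trav13 and Trav16 changed places. The Trd table of replicate 1 lists 1 to 3 segments of each of these 5 families. Trav12 was 98.2-fold lower, with 32 Trd counts against 11.2% of Tcra counts. Trav9 was 149-fold lower, with 8 Trd counts against 4.24%. Trav7 was 325-fold lower, with 11 Trd counts (0.0392%, 95% Wilson interval 0.0219 to 0.0701%) against 12.7%. Trav1, the first segment of the array, had 0 Trd counts and 1.36% of Tcra counts and was 127-fold lower when set at the floor. These families belong to 1 pair of libraries, and in replicate 1 the Trd table does not list Trav7, Trav9, Trav12 or Trav1.

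Position along the array was set beside the shares with the array of 130 annotated Trav genes cut into a distal part of 44 genes and a central and a proximal part of 43 each. The proximal part, nearest Trd, took 63.8% and 76.5% of Trav counts in Trd and 46.5% and 48.4% in Tcra. The central part took 2.06% and 11.1% in Trd and 20.7% and 22.1% in Tcra. The distal part took 34.2% and 12.4% in Trd and 32.8% and 29.5% in Tcra, so its Trd libraries lay on both sides of those of Tcra. The proximal excess was absent in replicate 2 without the DV-named segments: the proximal part then held 28.3% of Trd replicate 2 and 42.9% ± 0.260 (SD, n = 2) of Tcra. Trav15n-1, a central Trav15 copy without a delta name, stayed in that Trd total and held 980 of its 2952 counts. The 28.3% therefore does not show that other Trav segments are used less proximally in Trd.

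The Trav15 copies lie far apart, with starts 1259.8, 1166, 949, 855, 563 and 474 kb from the start of Trdj1, and each had a higher share in Trd than in Tcra of replicate 2. In that order, the ratios of replicate 2 were 9.47-fold, 7.56-fold, 9.38-fold, 18.4-fold, 17.4-fold and 27.6-fold. The 18.4-fold value, of Trav15n-2, rests on 18 Trd and 6 Tcra counts. Its share of Tcra replicate 1 was 0.0561%, near its 0.0641% of Trd replicate 2. In replicate 1 the copy farthest from Trdj1 had the highest ratio, 31.1-fold for Trav15d-1-dv6d-1, against 13.4-fold for Trav15d-2-dv6d-2, 13.3-fold for Trav15-1-dv6-1 and 23.8-fold for Trav15-2-dv6-2, so the replicates gave no common order with distance. Over the 75 Trav segments with a count in both replicate 2 tables, Spearman's rho of this ratio with distance was -0.18, and over the 13 of replicate 1 it was -0.03. Over the segments listed in both tables of a replicate, rho between Trd and Tcra share was -0.76 in replicate 1 (13 segments) and 0.10 in replicate 2 (88 segments). Within a locus the replicates had a rho of 0.82 in Trd (18 segments) and 0.83 in Tcra (106). These values are descriptions across segments that share libraries and, for copies, sequence.

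**Figure D4:**
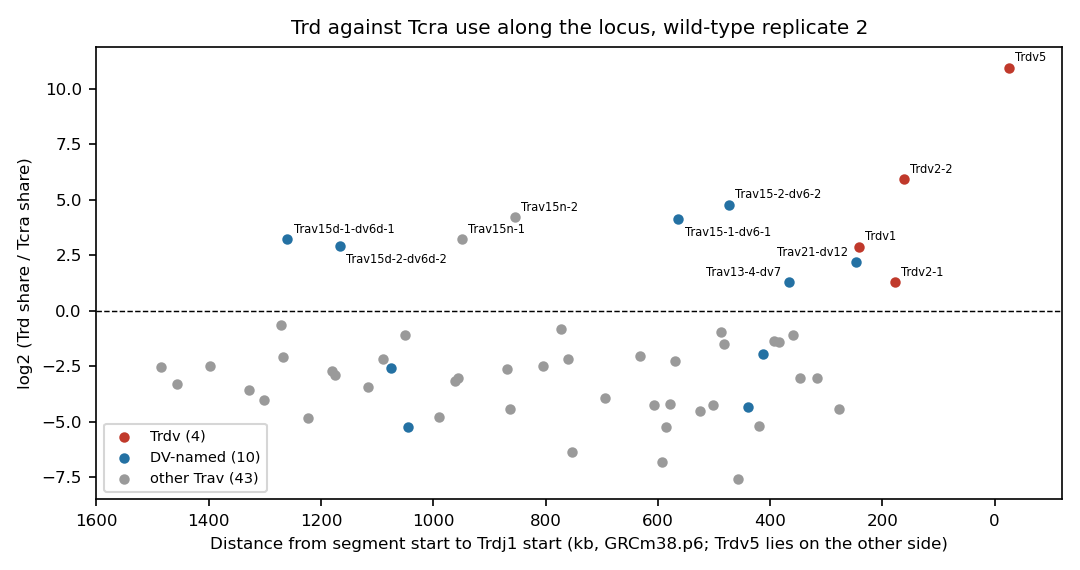
Log2 ratio of the Trd share to the Tcra share in replicate 2 (vertical axis) against distance from the segment's start to the start of Trdj1 in kb (horizontal axis, Trdj1 at 0, Trav array to the left), for the 57 V segments with over 3 counts in both tables, coloured by class. Of these, 12 lie above 0: the 6 Trav15 copies, spread from 1259.8 to 474 kb, Trav13-4-dv7, Trav21-dv12 and 4 Trdv segments.

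The J side of the Trd joins was nearly uniform. Trdj1 took 99.1% and 99.0% of Trd counts and Trdj2 the rest, 0.917% and 0.990%. Trdv5 had 0 of 220 and 5 of 3559 counts with Trdj2 (0.140%, 95% Wilson interval 0.0600 to 0.328%), below the share over all V segments in replicate 2. Trav14 copies had 21 of 433 with Trdj2 in replicate 2 (4.85%, interval 3.19 to 7.30%). Trav15-2-dv6-2 had 1.52% (interval 1.17 to 1.97%) and Trav15-1-dv6-1 had 0.325% (interval 0.158 to 0.669%) with Trdj2 in the same library. Replicate 1 held 1 Trdj2 count of each, too few to set them apart.

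The Traj joins of the DV-named and Trdv segments in Tcra were described by the 5′ part of the Traj array, which is the part nearest the V side and is known to be used in the first rounds of Tcra joining. The 5′ list, Traj61 to Traj42, took 29.3% and 31.7% of all Tcra counts in replicates 1 and 2. For the DV-named segments it took 47.3% and 51.2%. Trav4-4-dv10 and Trav6-7-dv9, both with lower shares in Trd than in Tcra, gave 2115 and 3549 of the 11869 such counts in replicate 2. Proximal DV-named segments had 59.3% and 56.9% of their counts there and other proximal Trav segments had 39.1% and 38.6%. Position was not matched within that part, and Trav21-dv12 alone gave 3421 of the 11128 proximal DV-named counts in replicate 2. Whether position accounts for the gap was not tested. In the central part the shares were 17.2% and 20.9% for DV-named and 18.4% and 19.5% for other Trav segments, with overlapping intervals. In the distal part the shares were 23.7% and 18.8% for DV-named and 16.9% and 18.7% for other Trav segments, and their intervals overlapped in both replicates.

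Trav21-dv12 joined the 5′ list in 81.4% and 84.8% of its Tcra counts. In Tcra replicate 2 Trdv1 did so in 84.6% (interval 83.2 to 86.0%), Trdv2-2 in 85.0% (interval 82.2 to 87.5%) and Trdv2-1, which lies between them, in 75.2% (interval 66.5 to 82.3%). Trav13-4-dv7 had 70.0% and 61.6%, and Trav17, which has no delta name and is scarce in Trd, had 71.7% and 71.4%. Traj58, the first segment listed, led for Trdv2-2 (23.5%), Trdv1 (23.1%) and Trav21-dv12 (18.0%), followed in each by Traj57, Traj56 and Traj49.

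The Trav15 copies did not share that pattern. They had 31.8% and 28.9% of their Tcra counts in the 5′ list, near the value over all segments. Their DV-named copies ran from 11.9% for Trav15d-2-dv6d-2 to 37.4% for Trav15-1-dv6-1 in replicate 2. Trav4-4-dv10 and Trav6-7-dv9, which were lower in Trd, had 52.6% and 49.3%, and 55.5% and 49.1%. High use in Trd and 5′ Traj joining in Tcra thus did not run in parallel over the DV-named segments, with array position not matched. The proximal copies Trav15-1-dv6-1 and Trav15-2-dv6-2 had 37.4% and 31.7% in replicate 2, against 38.6% for other proximal Trav segments. Whether position accounts for the differences among DV-named segments was not tested.

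**Figure D5:**
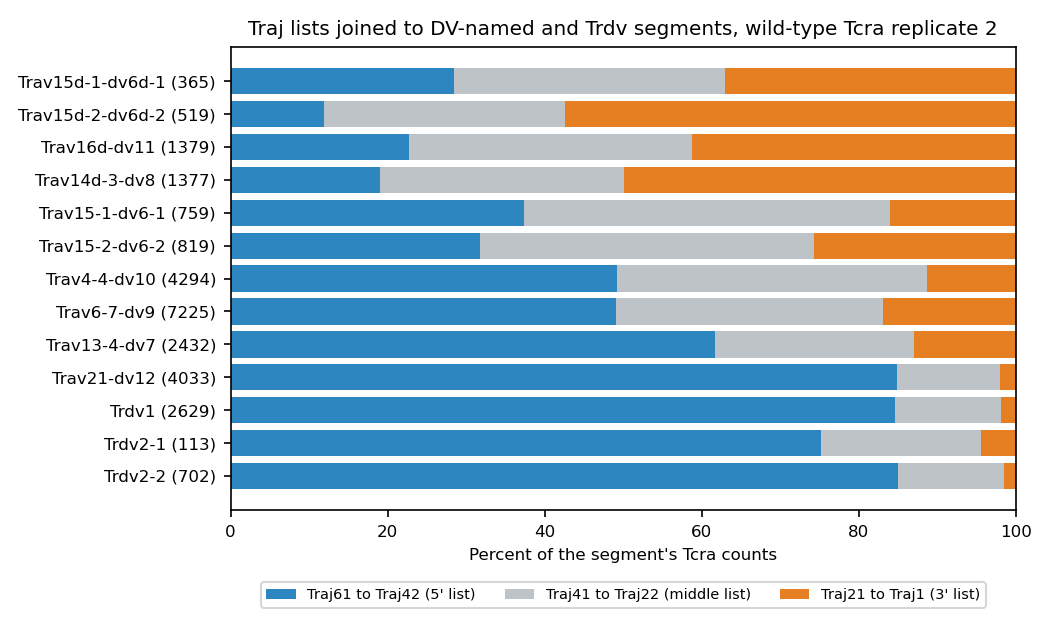
Percent of a segment's Tcra counts in wild-type replicate 2 (horizontal axis) that joined the 5′, middle or 3′ Traj list, for the DV-named and Trdv segments with at least 100 counts, in chromosome order from top to bottom, with each segment's Tcra count in brackets. The 5′ part is widest for Trav21-dv12, Trdv1 and Trdv2-2, at 84.8%, 84.6% and 85.0%, and narrowest for Trav15d-2-dv6d-2, at 11.9%.

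The same contrast was made in the EACBE-/- libraries, which share no sample with the wild-type ones. Trav15 took 51.6% and 34.3% of EACBE-/- Trd counts and 2.44% and 2.42% of EACBE-/- Tcra counts. In edgeR 7 of 17 segments tested were called (41.2%), 5 higher in Trd (29.4%) and 2 lower (11.8%). All 13 segments tested in both genotypes had the same sign, and 6 of the 8 wild-type calls were also called: the 4 DV-named Trav15 segments, Trav21-dv12 (log2 change 1.62, adjusted p = 0.0147 in edgeR) and Trav4-4-dv10 (-5.21, adjusted p = 0.0103 in edgeR). The difference between loci was tested against genotype by an interaction term, which edgeR called for 0 of 13 segments, with 0 at an unadjusted p below 0.05. With unlisted segments kept at 0 it called 0 of 111, with 2 at an unadjusted p below 0.05. The standard errors of that term ran up to 2.41 on the log2 scale, so large differences between genotypes would not have been detectable for several segments.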

How the data were processed

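Receptor transcripts were copied from thymus RNA by template-switch 5′ RACE, per the labels' protocols, and the authors deposited 1 table of whole-number counts per library, V segments in rows and J segments in columns. The sources used here do not give the program that assigned segments, the handling of reads matching several copies, or what 1 count is (a read or a receptor). If counts are reads, abundant transcripts weigh more and amplification adds to the spread.

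Counts were summed per V segment and divided by the table total (1744 to 172388 counts). Names were matched with / and - before DV as the same, and all 111 segments were found in RefSeq's GRCm38.p6 annotation (mm10 in the submitters' processing notes). V segments listed in all 4 tables were tested with edgeR 4.0.16 (glmQLFit, glmQLFTest, R 4.3.3), each library size being its table total without TMM factors, filterByExpr at a minimum count of 10 and minimum total of 15, Benjamini-Hochberg adjustment and a threshold of 0.05. Shares were compared over libraries by an exact permutation test, two-sided (scipy 1.17.1), with Wilson intervals at 95%. Diversity used 100 draws thinned to the smallest total. A count of 0 was given a floor of 3 counts per library. Named were the up to 8 segments higher and 8 lower with the largest log2 change among those passing with separate libraries, filled up to 5 by lowest p, and always every Trdv and DV-named segment, Trav17 and the 5 most used segments per locus. The n copies of Trav15, Trav13d-4, Trav13n-4, the copies of other DV-named segments and the families were named after their values were seen.

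As alternatives, libraries were left out in turn, and fits were made with DESeq2 1.42.0, TMM factors, no filter, a replicate block, unlisted segments at 0, other totals, copies summed and other list bounds. The fit was tested on simulated counts drawn with the same dispersion for all segments. Some segments here differed widely between Trd replicates, so no error rate for these data is drawn from it. The members, lists and tests were chosen with earlier results of these data known. No V segment sequence is printed.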

Additional observations from a re-analysis of the deposited data

How the results depend on the processing

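Of 8 segments past the threshold in wild type, leaving out 1 library gave 4 to 11 (4 without Tcra replicate 1), 4 to 6 of them higher and 0 to 5 lower. Under other settings, 5 passed with the replicate block and TMM factors together (3 higher), where Trav15d-2-dv6d-2 had an adjusted p of 0.0598 in edgeR. With unlisted segments at 0, 101 of 106 passed (11 higher, 90 lower), and with Trdv counts also left out of the totals, a setting chosen after seeing the data, 78 of 99 did (71 lower). The number lower was 6 with TMM factors, in DESeq2 and with totals over the tested segments, 1 with the replicate block, 1 with totals without Trdv counts and 5 with copies summed, where 3 were higher. The labels do not say that a replicate number marks shared mice, and with the block 6 passed, Trav6-7-dv9 (adjusted p = 0.0719 in edgeR) and Trav14d-2 (0.0802) not among them. The deviations of same-numbered libraries had a correlation of 0.49 over 13 segments.

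In EACBE-/-, the count of 7 was 4 to 12 with 1 library left out (0 to 8 lower), 72 with unlisted segments at 0 (65 lower), 4 with the replicate block (0 lower) and 4 with copies summed (2 higher), and 0 were lower with TMM factors. Leaving out libraries and summing copies there were chosen after seeing the data.

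With totals over the 13 segments listed in all 4 tables, Trd minus Tcra was 24.4 points for DV-named and -24.4 for other Trav segments. These mirror each other because the 10 DV-named and 3 other Trav segments make up that total. With all counts the values were 27.95 and -80.6, the latter over 96 other Trav segments. The settings therefore do not measure the same quantity. The distal difference of -7.84 points ran from -18.7 without Trd replicate 1 to 3.03 without Trd replicate 2, and was 1.90 with totals over segments listed in all 4 tables and 0.451 with the array split into 5 parts, the middle 3 taken as central. The central difference of -14.8 was -19.7 and -29.5 in the last 2 and 34.1 without DV-named segments, where Trd replicate 1 holds 5 counts. The proximal difference of 22.7 was -14.6 without them, with Trav15n-1 kept in the totals. With the Traj array split at Traj32, DV-named segments had 66.1% of their own Tcra counts in the 5′ and 33.9% in the 3′ part (means over the replicates). Over all segments the 5′ part took 47.4% and 47.0% of Tcra counts in replicates 1 and 2. The cause of these shifts was not tested. For single segments no log2 change turned sign, 16 calls were lost and 18 gained over these settings, and 135 values kept their side.

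Depth limits Trd replicate 1 most, where a share under 0.172% rests on fewer than 3 counts.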
